A study of Raphidocelis subcapitata with 493 samples.

Results

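The 150 genes described here were chosen by measured values, as the strongest rises that FC10diol and PFTDoDA shared at 100 µM in the green alga Raphidocelis subcapitata. They were taken from 13429 genes by a score called R. Counts were first scaled to a library total of 1000000, which gives CPM, a share of the library. R is the log2 ratio of mean CPM plus 1 at a concentration to mean CPM plus 1 in the DMSO control of the same exposure, centred on the median gene with at least 5 CPM in that control. A gene needed at least 10 CPM at 100 µM of both compounds, which 6782 genes had. Its FC10diol R also had to be under 0.8 at 3 µM and at least 0.5 at 32 µM, and 1227 genes met all conditions. The 150 members are those with the highest value of the lower of both R values at 100 µM. At the edge, the members ranked 149 and 150, Rsub_00578 and Rsub_06113, had lower R values of 1.13 and 1.13, and the next genes, Rsub_02210 and Rsub_03674, also had 1.13 and 1.13, so the boundary is a rank and not a gap.

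The exposures lasted 24 h and covered 22 PFAS, the per- and polyfluoroalkyl substances, which are man-made compounds with fluorinated carbon chains, and 493 libraries of polyadenylated RNA were counted. Cultures were in exponential growth under constant light, and RNA came from pooled homogenates of wells. FC10diol and FC8diol were tested together in one exposure and PFTDoDA and 8:2FTS, a fluorotelomer sulfonate, in another, each with 3 DMSO control libraries and 3 libraries at each of 0.1, 0.3, 1, 3, 10, 32 and 100 µM. Treated and control wells all held 0.33% solvent. The labels call every control DMSO, while the series text names DMSO or methanol. The assay was run on replicate plates, and the libraries are numbered 1 to 3 within a group. The labels do not say which plate a number marks or whether separate cultures were used. The p-values below therefore reflect variation among these libraries alone, and that variation may be technical. Both exposures together hold 90 libraries with total counts from 831287 to 1676351.

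Raphidocelis subcapitata is a crescent-shaped, planktonic, freshwater alga that grows as single cells and is a standard species in growth-inhibition tests. PFAS resist degradation, and many of them are surface-active. An algal cell exposed to a chemical commonly adjusts the transcripts of many genes together, and the set that rises can differ between chemicals. The deposited tables give gene identifiers alone and no annotation was used here, so no function is given to any identifier, no pathway list could be matched and no marker of the species or its growth state could be checked.

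At 100 µM the members made up 6.47, 6.50 and 6.66% of all counts in the FC10diol libraries, against 0.932 to 0.993% in the 3 controls of that exposure. With PFTDoDA they made up 3.55, 3.71 and 3.24%, against 0.884 to 0.939% in its controls. The groups did not overlap, as the choice of members requires, and these values describe the choice. In CPM summed over the members, FC10diol rose from a control range of 9321 to 9931 to 64737 to 66631, and PFTDoDA from 8836 to 9391 to 32360 to 37106. A CPM is a share of the library, so more of these transcripts and less of all others cannot be told apart. With FC10diol at 100 µM the log2 ratio of the median gene with at least 5 control CPM was -0.49 before centring, and with PFTDoDA it was -0.02.

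Most members rose further with FC10diol than with PFTDoDA. R was larger with FC10diol in 134 members and larger with PFTDoDA in 16. It ran from 1.16 to 6.74 with a median of 3.06 for FC10diol and from 1.13 to 6.37 with a median of 1.66 for PFTDoDA. An R of at least 3 was reached by 78 members with FC10diol and by 19 with PFTDoDA. All genes with at least 5 control CPM leaned the same way. Of these, 20.1% had an R of at least 1 at 100 µM of FC10diol and 5.63% at 100 µM of PFTDoDA. Over the 150 members, R of both compounds had a Pearson correlation of 0.55 and a Spearman correlation of 0.48, a description over genes that were selected on both values.

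Members started from very different levels. Their mean control CPM ran from 0.23 to 1004 in the FC10diol exposure, with a median of 22.4, and from 0 to 752 in the PFTDoDA exposure, with a median of 21.7. In both controls 38 members were under 10 CPM and 19 were over 100 CPM. The 10 largest gains gave 54.5% of the summed CPM gain with FC10diol and 49.2% with PFTDoDA, and 7 genes were among the 10 of both. A few abundant members therefore set the summed values, while the median R weighs every member alike.

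The largest gain with both compounds belonged to Rsub_00759, which is named after its values were seen. Its 3 libraries had 202, 167 and 166 CPM in the FC10diol control, 346, 407 and 389 CPM at 10 µM, 365, 348 and 357 CPM at 32 µM and 7997, 6738 and 7084 CPM at 100 µM. With PFTDoDA it had 277, 187 and 171 CPM in the control, 919, 996 and 1025 CPM at 32 µM and 3880, 4160 and 3187 CPM at 100 µM. It was level between 10 and 32 µM of FC10diol and then rose steeply, whereas with PFTDoDA it was already well above its control at 32 µM.

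**Figure D1:**
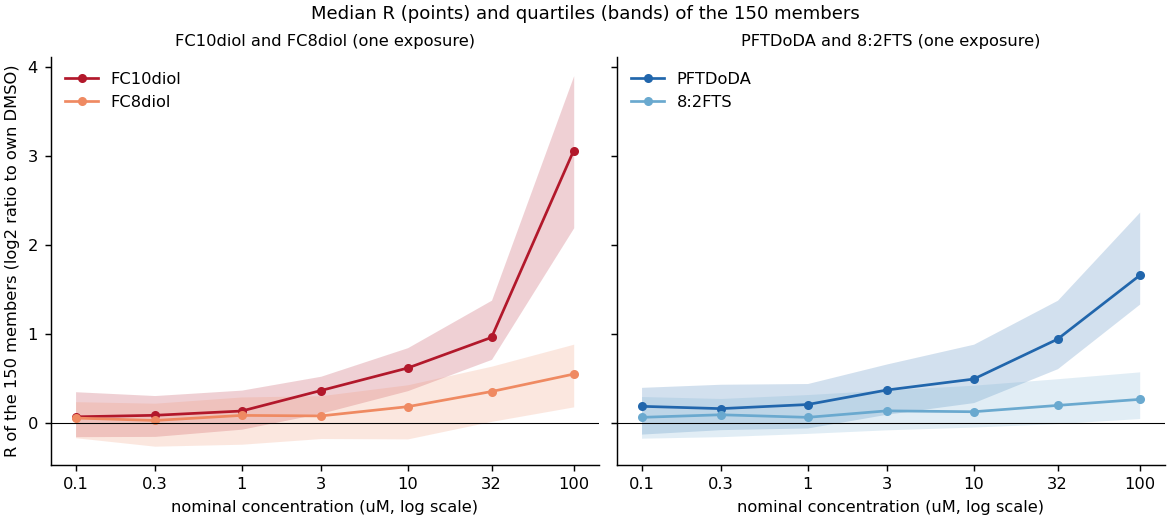
Median R of the 150 members (points) with quartiles (bands) against nominal concentration in µM on a log axis, for FC10diol and FC8diol on the left and PFTDoDA and 8:2FTS on the right. FC10diol goes from a median of 0.96 at 32 µM to 3.06 at 100 µM, PFTDoDA from 0.94 to 1.66, and FC8diol and 8:2FTS end at 0.55 and 0.26; the values at 3, 32 and 100 µM of FC10diol and 100 µM of PFTDoDA chose the members.

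Across concentrations the median R stayed near its control up to 1 µM and then climbed. For FC10diol it was 0.07, 0.09, 0.13, 0.36, 0.62, 0.96 and 3.06 from 0.1 to 100 µM. For PFTDoDA the same series was 0.19, 0.16, 0.21, 0.37, 0.49, 0.94 and 1.66. The medians of both were alike at 32 µM and parted at 100 µM. The rule required an R of at least 0.5 at 32 µM of FC10diol and set no such bound for PFTDoDA. These medians and the percentages reached at 32 µM therefore describe the choice. At 32 µM FC10diol had reached a median of 35.2% of a member's R at 100 µM, with quartiles of 26.2 and 50.6%, and PFTDoDA 51.7%, with quartiles of 38.4 and 69.7%. The share was larger with PFTDoDA in 112 of the 150 members. An R of at least 1 at both 32 and 100 µM was seen in 71 members with FC10diol and 67 with PFTDoDA, and at 10 µM and above in 23 and 31. All genes with at least 5 control CPM were counted at the single concentration, whatever their R above it. Of these, 5.52% had an R of at least 1 at 32 µM of FC10diol and 2.23% at 32 µM of PFTDoDA. At 10 µM these shares were 3.51 and 1.36%, beside 25 and 31 members counted at 10 µM alone. Measured from 0.1 µM of the same compound in place of the control, the median was 0.52, 0.91 and 2.88 at 10, 32 and 100 µM of FC10diol and 0.35, 0.81 and 1.65 with PFTDoDA.

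The first member in rule order, Rsub_09256, showed the contrast between both courses. It had 5.50, 2.85 and 3.44 CPM in the FC10diol control, 3.85, 9.15 and 3.39 CPM at 32 µM, and 344, 443 and 331 CPM at 100 µM. In the PFTDoDA exposure it had 3.19, 10.4 and 11.9 CPM in the control, 22.2, 39.3 and 59.7 CPM at 10 µM, 128, 164 and 144 CPM at 32 µM, and 846, 856 and 610 CPM at 100 µM. FC10diol libraries at 32 µM overlapped their control and those at 100 µM stood far above it, while PFTDoDA libraries at 10 and 32 µM already lay above the 3 control libraries of their own exposure. Rsub_05059 and Rsub_11376, the second and the fourth in rule order, were also higher at 32 µM of PFTDoDA than at 32 µM of FC10diol. Rsub_05059 had 6.92, 9.15 and 6.79 CPM at 32 µM of FC10diol and 94.4, 123 and 143 CPM at 32 µM of PFTDoDA, from control means of 4.99 and 6.63 CPM. Rsub_11376 had 12.3, 14.9 and 31.4 CPM and 69.4, 87.2 and 101 CPM in the same groups, from control means of 6.84 and 5.38 CPM. Rsub_02532, the third, reached 12.3, 10.3 and 8.49 CPM at 32 µM of FC10diol and 29.3, 26.6 and 32.0 CPM at 32 µM of PFTDoDA, and it was scarce in the FC10diol control, with a mean of 0.63 CPM.

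**Figure D2:**
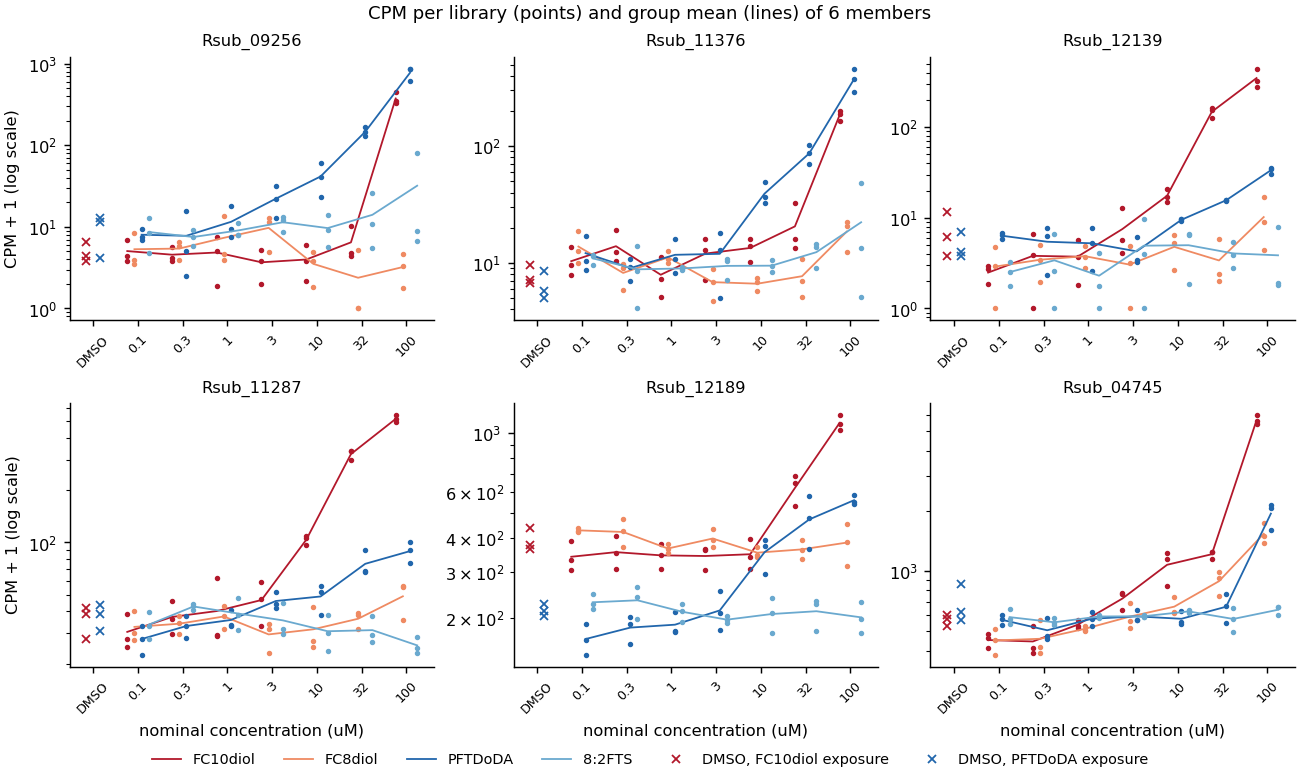
CPM plus 1 of 6 members on log axes against nominal concentration, one dot per library, lines through the means of 3 libraries and crosses for the DMSO libraries of each exposure. Rsub_09256 and Rsub_11376 leave their controls at lower concentrations of PFTDoDA than of FC10diol, Rsub_12139 climbs further with FC10diol, Rsub_11287 is near 100 CPM already at 10 µM of FC10diol, and Rsub_12189 and Rsub_04745 start from the highest levels of the 6.

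Rsub_12139 went the other way. It had 2.75, 10.5 and 5.17 CPM in the FC10diol control, 13.9, 16.1 and 19.7 CPM at 10 µM, 155, 162 and 124 CPM at 32 µM and 437, 326 and 280 CPM at 100 µM. With PFTDoDA it had 3.19, 2.84 and 5.96 CPM in the control, 14.3, 14.8 and 14.8 CPM at 32 µM and 29.2, 34.7 and 33.6 CPM at 100 µM. The groups did not overlap with either compound at 32 µM, but FC10diol raised the level far more.

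Neither 0.1 nor 10 µM of FC10diol entered the selection, so their contrast is an independent test. Of the 150 members, 149 entered it, 40 rose and 0 fell (edgeR quasi-likelihood test, Benjamini-Hochberg adjusted p under 0.05), against 6.04% of all tested genes that rose and 4.86% that fell. At an unadjusted p under 0.05, 69 members were higher and 0 lower, and DESeq2 called 39 higher and 0 lower. The median log2 fold change of the tested members was 0.52 and that of all genes 0.01, and 128 of the 149 were above 0. Of the 1077 genes that met the same conditions but ranked outside the 150, 216 rose, which is 20.1%, beside 26.8% of the tested members. Leaving out replicate number 2 left 20 members called and leaving out number 3 left 23, with 33 without number 1.

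Neither 0.1 nor 32 µM of PFTDoDA entered the selection, although the filter on low counts again saw the 100 µM libraries. All 150 members entered this test, 76 rose and 0 fell, against 3.81% of all tested genes that rose and 2.16% that fell. At an unadjusted p under 0.05, 107 were higher and 0 lower, and DESeq2 called 77 higher and 0 lower. The median log2 fold change was 0.80 in the members and 0.00 in all genes, and 140 of the 150 were above 0. Only 51 of the 1077 passing genes outside the 150 rose, or 4.74%. These genes had at least 10 CPM at 100 µM of PFTDoDA and ranked below the members in the lower of both R values, and their median R at 100 µM was 0.10 with PFTDoDA and 0.60 with FC10diol. Members and passing genes therefore differ in PFTDoDA at 100 µM by the choice itself. Already at 10 µM, 28 members rose against 0.1 µM, beside 0.832% of all genes. Without replicate number 2 the count at 32 µM was 45, and without numbers 1 and 3 it was 66 and 64.

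Both contrasts share no library. Of the 40 members called with FC10diol at 10 µM, 29 were also called with PFTDoDA at 32 µM. That is 72.5% of the former and 38.2% of the latter. Among all tested members, 50.7% were called with PFTDoDA and 26.8% with FC10diol. The same overlap was not counted among all genes, so it does not set the members apart. A further 63 members were called in neither. Called members were the more abundant ones, with a median of 53.2 CPM at 0.1 µM against 17.8 CPM in the others for FC10diol and 33.2 against 16.3 CPM for PFTDoDA. Of the 39 members under 10 CPM at 0.1 µM of each compound, 6 were called with FC10diol and 17 with PFTDoDA, and of the 111 at or above it 34 and 59.

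**Figure D3:**
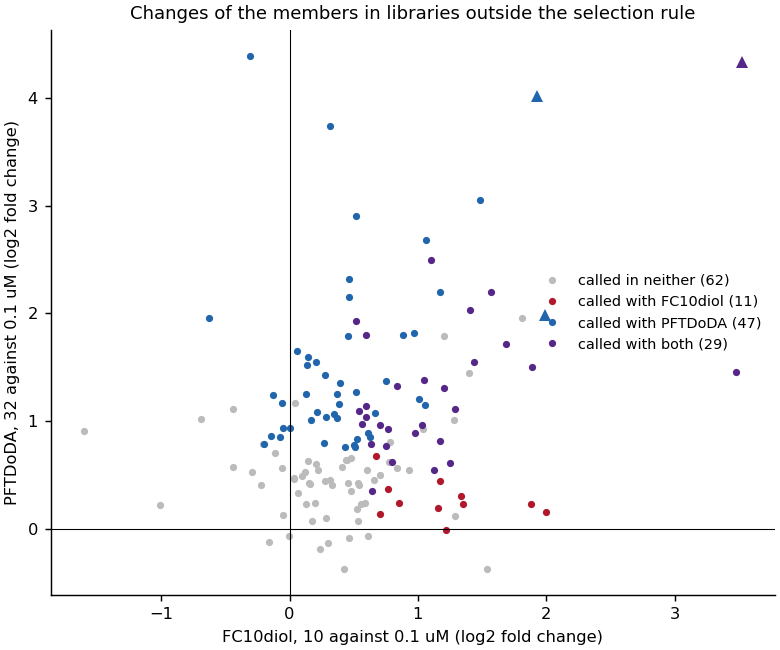
Log2 fold change of PFTDoDA at 32 against 0.1 µM (vertical) against FC10diol at 10 against 0.1 µM (horizontal) for the 149 members tested in both, coloured by which contrast called them. The 29 members called in both, the 11 and 47 called in one and the 62 called in neither lie mostly right of and above 0, and 3 triangles mark members whose reference libraries were all at 0, drawn at the bound that 3 counts allow.

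The 3 largest called edgeR fold changes with PFTDoDA at 32 µM were in scarce members with 0 reference counts. Only bounds can be given for these, so they are not ranked as the steepest. In the same contrast Rsub_09256, which was detected at 0.1 µM, rose 20.9-fold. Rsub_06262 had 0 counts in all 3 libraries at 0.1 µM of PFTDoDA and 11.5, 19.2 and 10.9 CPM at 32 µM, at least 20.1-fold higher when the reference is set to 3 counts over the group (adjusted p = 3.62e-07). Rsub_09724 had 0 counts there and 12.9, 9.60 and 10.9 CPM at 32 µM, at least 16.2-fold higher (adjusted p = 2.06e-05). Rsub_09976 had 0 counts and 1.43, 3.69 and 3.12 CPM, at least 3.95-fold higher (edgeR adjusted p = 0.0455), and this call was lost without any of the replicate numbers. Rsub_09976 passed the filter on low counts only through its 100 µM libraries, with a mean of 20.6 CPM, so its call is no separate support. All libraries at 32 µM lay above all at 0.1 µM for these genes. With FC10diol at 10 µM Rsub_06262 had 10.2, 1.00 and 11.6 CPM against 0, 1.91 and 0 CPM at 0.1 µM, a ratio of 12.7 with a counting interval of 3.13 to 112 (adjusted p = 0.0117). Its DMSO control in that exposure was higher than 0.1 µM, at 3.44, 4.76 and 3.44 CPM, and R at 10 µM was 0.91. One of its libraries at 10 µM lay inside the range of the reference, and the call was lost without replicate number 1 or 3.

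Rsub_12139 rose between 0.1 and 10 µM of FC10diol from 1.72, 1.91 and 0.84 CPM to 13.9, 16.1 and 19.7 CPM, a log2 fold change of 3.48 ± 0.61 (SE, n = 3 against 3, edgeR adjusted p = 0.000129). Its libraries at 0.1 µM lay below its DMSO control, with an R of -1.53, and R at 10 µM was 1.40. Rsub_04228 rose between the same concentrations from 3.44, 2.86 and 5.85 CPM to 15.7, 19.1 and 11.6 CPM, by 2.00 ± 0.50 (edgeR adjusted p = 0.00643). With PFTDoDA at 32 µM Rsub_04228 had 6.44, 10.3 and 7.80 CPM against 6.20, 8.71 and 7.16 CPM at 0.1 µM, a log2 fold change of 0.16 ± 0.48 (edgeR adjusted p = 0.916). The groups of Rsub_04228 were apart with FC10diol, where the call was lost without replicate number 2, and overlapped with PFTDoDA. For Rsub_09256 it was the reverse, with 0.1 to 10 µM of FC10diol changing it by -0.31 ± 0.61 (edgeR adjusted p = 0.806) and 0.1 to 32 µM of PFTDoDA by 4.39 ± 0.44 (edgeR adjusted p = 1.27e-06).

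At the matched concentration of 10 µM the changes from 0.1 µM were compared directly between FC10diol and PFTDoDA, a test added after the data were seen. Each change was taken within its own exposure. Of the 150 members, 9 had a larger change with FC10diol and 3 with PFTDoDA, beside 2.15% and 1.76% of all genes in these directions. Of the 1077 passing genes outside the 150, 97 had a larger change with FC10diol, or 9.01%, and 4 with PFTDoDA, beside 6.00% of the members with a larger FC10diol change. Without replicate number 2 the counts were 1 and 0. The median log2 difference was 0.06 over the members and 0.31 over those passing genes. The largest difference towards FC10diol was that of Rsub_12139, 2.79 ± 0.78 (edgeR adjusted p = 0.0241). Its reference at 0.1 µM lay low with FC10diol, with an R of -1.53, beside 0.32 with PFTDoDA. Against the controls its R at 10 µM was closer, 1.40 with FC10diol and 0.91 with PFTDoDA. The 3 members with the larger PFTDoDA change were Rsub_12189, Rsub_03493 and Rsub_03363. Rsub_12189 had 388, 329 and 303 CPM at 0.1 µM and 397, 340 and 305 CPM at 10 µM of FC10diol, and 164, 190 and 145 CPM and 375, 394 and 292 CPM with PFTDoDA, a difference of -0.98 ± 0.22 (edgeR adjusted p = 0.00252). Its libraries at both concentrations overlapped with FC10diol and were apart with PFTDoDA.

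FC8diol and 8:2FTS show how the members behaved with the other compound of each exposure. Their controls entered the selection, so the reference was again 0.1 µM. At 100 µM of FC8diol, 131 of the 150 members entered the test, 32 rose and 0 fell, against 4.84% of all genes that rose and 5.04% that fell, and at an unadjusted p under 0.05, 58 were higher and 2 lower. DESeq2 called 31 higher and 0 lower. Of the passing genes outside the 150, 14.1% rose. The median log2 fold change of the tested members was 0.51. At 32 µM 10 members were called, beside 1.15% of all genes. The count at 100 µM fell to 19 without replicate number 2 and to 20 without number 3, with 32 without number 1.

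Among the members called with FC8diol, Rsub_04860 had 285, 261 and 263 CPM at 0.1 µM and 1064, 855 and 993 CPM at 100 µM, a log2 fold change of 1.91 ± 0.12 (edgeR adjusted p = 3.71e-16). Rsub_04745 had 513, 452 and 380 CPM and 1376, 1727 and 1498 CPM (1.83 ± 0.13, edgeR adjusted p = 2.69e-13). Rsub_10216 had 916, 981 and 856 CPM and 2004, 1944 and 1945 CPM (1.16 ± 0.09, edgeR adjusted p = 2.52e-13). All 3 are abundant, none of their groups overlapped, and 100 µM of FC10diol held them at 4480 ± 140, 5669 ± 300 and 3725 ± 209 CPM (SD, n = 3). Rsub_09256, the first in rule order, was not called with FC8diol (edgeR adjusted p = 0.548). It had 7.51, 2.94 and 2.50 CPM at 0.1 µM and 0.77, 2.30 and 3.59 CPM at 100 µM of FC8diol.

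With 8:2FTS at 100 µM, 137 of the 150 members entered the test, 5 rose and 0 fell, against 0.768% of all genes that rose. At an unadjusted p under 0.05, 21 were higher and 0 lower, and DESeq2 called 5 and 0. The 5 members were Rsub_12446, Rsub_00330, Rsub_12772, Rsub_04860 and Rsub_10627, with log2 fold changes from 0.57 to 0.96. Without replicate number 2 the count was 1, and without number 3 it was 2.

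One 8:2FTS library stood apart in the leading members. At 100 µM Rsub_09256 had 5.73, 7.98 and 79.1 CPM, Rsub_05059 had 8.19, 1.77 and 67.0 CPM, and Rsub_11376 had 4.09, 12.4 and 47.3 CPM, each time with library 3 the highest. The summed member CPM of these libraries was 9518, 9975 and 11753. Among the 139 members with a mean of at least 5 CPM there, 6 were at least 2 times above both other libraries in library 3. This compares with 0.765% of all such genes. In libraries 1 and 2 it was 3 members each, against 0.712 and 0.604%. At 100 µM of FC8diol, library 2 had 5 of 135 such members, against 1.91%. What set library 3 of 8:2FTS apart was not tested.

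Levels at equal concentrations were compared for 2 pairs, FC10diol with FC8diol and PFTDoDA with 8:2FTS. At 10 µM, 149 members entered the comparison of FC10diol with FC8diol, 38 were higher with FC10diol and 0 lower, against 7.09% of all genes that were higher; 59 and 1 passed an unadjusted p under 0.05, and DESeq2 called 38 and 0. Of the passing genes outside the 150, 28.9% were higher, beside 25.5% of the tested members. When the changes from 0.1 µM were compared in place of the levels, 7 members had a larger change with FC10diol, beside 0.987% of all genes. Without replicate number 2 the level comparison called 14 and without number 3 it called 20.

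At 32 µM, 66 of 149 tested members were higher with PFTDoDA than with 8:2FTS and 0 lower, against 2.34% of all genes that were higher, and 3.06% of the passing genes outside the 150. At an unadjusted p under 0.05, 96 were higher and 0 lower, and DESeq2 called 67 and 0. The change from 0.1 µM was larger with PFTDoDA in 26 members, beside 0.76% of all genes. Without replicate number 2 the level comparison called 33, and without numbers 1 and 3 it called 52 each. The labels give these compounds by short names and no structure, so no structural difference is set beside these values. For Rsub_11287, libraries at 32 µM had 67.3, 89.4 and 66.3 CPM with PFTDoDA and 28.2, 25.8 and 36.6 CPM with 8:2FTS, and its change from 0.1 µM was larger by 1.59 ± 0.33 (edgeR adjusted p = 0.00117). At 10 µM it had 95.1, 107 and 105 CPM with FC10diol and 26.2, 24.1 and 41.4 CPM with FC8diol, and its change was larger by 1.91 ± 0.35 (edgeR adjusted p = 0.000262). Neither pair of groups overlapped.

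**Figure D4:**
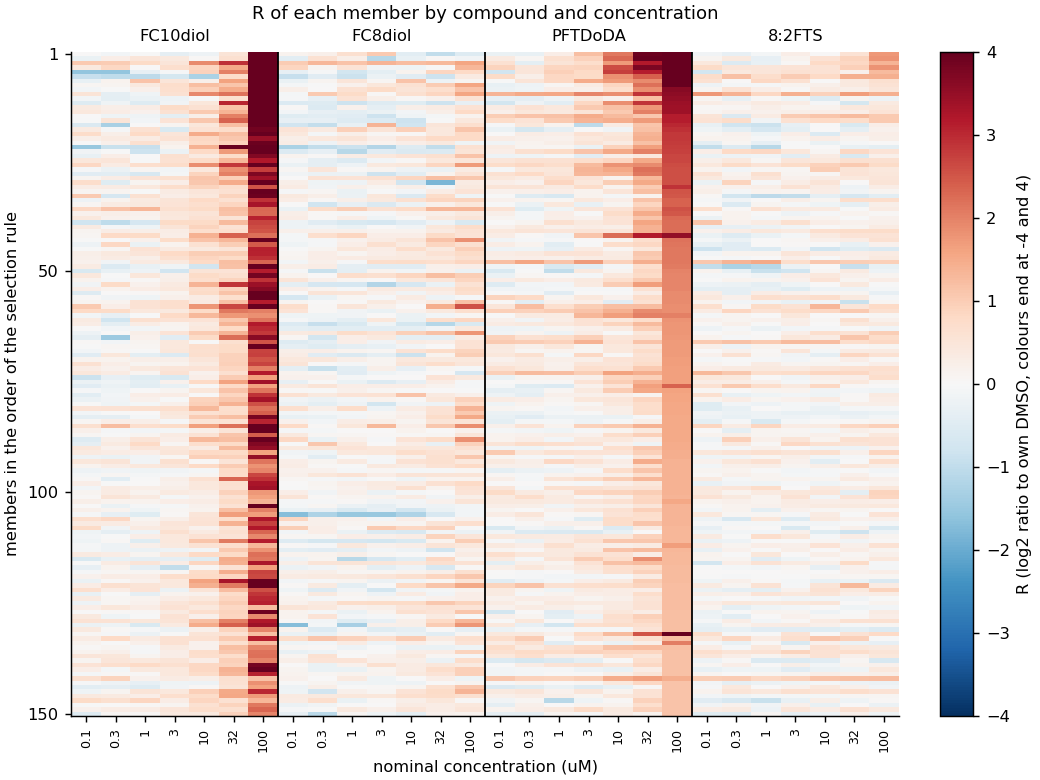
R of the 150 members (rows, in rule order) at 7 concentrations of FC10diol, FC8diol, PFTDoDA and 8:2FTS (columns), red above and blue below the own DMSO control. The 100 µM columns of FC10diol and PFTDoDA are red throughout because they chose the members. The FC8diol column at 100 µM holds 27 members with an R of at least 1, and that of 8:2FTS holds 10. Among all genes with at least 5 control CPM these shares were 2.31 and 0.728%. The controls entered the choice of members, and measured from 0.1 µM in their place, 30 and 5 members reached 1.

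The other 18 compounds, from 9 exposures, entered no step of the selection, and their highest concentration was compared with their own DMSO control, so both compounds of an exposure share their controls. That concentration was 100 µM for all but PFTrDA, at 5 µM, and had 3 libraries except for 2 each of PFHpA and 6:1 FTOH. Between 112 and 146 members entered each test. Summed over compounds, members were called higher 107 times in 2447 tests, or 4.37%, beside 1.9% of all gene tests, and lower 17 times, or 0.695%, beside 1.83%. Leaving out replicate number 2 left 34 and 9 calls, and leaving out number 1 left 61 and 7. The median R of the members ran from -0.00 with PFPeA to 0.37 with PFOS, below the 3.06 and 1.66 of the compounds that chose them. Calls of the passing genes outside the members were not pooled over compounds. The pooled shares therefore do not set members apart from these genes.

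PFTP called the most members, 25 of 142 higher, or 17.6%, beside 10.7% of all its genes. With PFOS 16 of 135 rose, or 11.9%, beside 2.6% of all genes. With FHxSA 15 of 141 rose, or 10.6%, beside 7.1%, and with PFUdA 12 of 137, or 8.76%, beside 1.05%. For PFOS and PFUdA the members' share was well above that of all genes, and for PFTP and FHxSA it was nearer to it. Of the passing genes outside the members, 15.9% rose with PFTP, 4.84% with PFOS, 6.41% with FHxSA and 1.41% with PFUdA. The members' share with PFTP was therefore close to that of these genes. With some other compounds these genes rose more often than members, as with PFHxS, at 4.38% beside 2.13%. In 4 compounds, 4:2FTS, PFHpA, PFNA and PFTrDA, 0 members were called higher by edgeR or by DESeq2. At an unadjusted p under 0.05 in edgeR, 8, 8, 7 and 9 were higher and 6, 6, 10 and 4 lower. The share of all genes at that threshold was not counted. In all, 63 members were called higher with at least 1 of the 18 compounds, 14 lower with at least 1, and 80 in neither direction. Some of the 80 were hardly tested. Rsub_09724, Rsub_09976, Rsub_06262 and Rsub_00840 entered the tests of 0, 1, 2 and 3 compounds. The share of all genes called with at least 1 compound was not counted. These 3 counts therefore do not set the members apart from other genes.

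The members called higher most often were Rsub_02558, Rsub_04860, Rsub_12189, Rsub_10627 and Rsub_12446, with 4 of the 18 compounds each, and the first 3 of these had the larger mean log2 fold changes, of 1.26, 0.93 and 0.92. Rsub_02558 had 31.1, 43.2 and 30.4 CPM in its DMSO control and 126, 71.0 and 77.5 CPM with PFUdA, a log2 fold change of 1.35 ± 0.29 (edgeR adjusted p = 0.00252). Rsub_04860 had 318, 284 and 370 CPM in the control and 829, 728 and 678 CPM with PFOS (1.22 ± 0.16, edgeR adjusted p = 2.38e-06). Rsub_12189 had 69.2, 103 and 65.2 CPM in the control and 199 and 191 CPM in both libraries of 6:1 FTOH (1.25 ± 0.19, edgeR adjusted p = 5.78e-05). These groups did not overlap. Rsub_12189 also went the other way with FHxSA, from 376, 319 and 298 to 289, 259 and 249 CPM (-0.34 ± 0.10, edgeR adjusted p = 0.0157).

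Rsub_12012, Rsub_09354 and Rsub_11287 were called lower with 2 compounds each. Rsub_12012 had 6.16, 7.62 and 13.9 CPM in its control and 2.23, 2.16 and 1.39 CPM with FHxSA (-2.23 ± 0.62, edgeR adjusted p = 0.00708). Rsub_09354 had 30.3, 33.7 and 44.2 CPM in the control and 8.27, 3.31 and 16.8 CPM with PFTP (-1.79 ± 0.37, edgeR adjusted p = 0.000504). Rsub_11287 had 34.6, 38.9 and 37.1 CPM and 15.6, 17.3 and 15.3 CPM with FHxSA (-1.21 ± 0.29, edgeR adjusted p = 0.00143), while with PFUdA it rose from 43.3, 23.9 and 26.7 to 100, 92.4 and 94.9 CPM (1.63 ± 0.29, edgeR adjusted p = 0.000148). The leading member, Rsub_09256, fell with PFTP from 57.2, 41.4 and 48.9 CPM to 16.5, 28.2 and 28.3 CPM (-0.88 ± 0.26, edgeR adjusted p = 0.0155), so a rise with FC10diol and PFTDoDA did not carry over to every compound.

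Members also differed between the controls of the 11 exposures. The PFTDoDA and FC10diol exposures had the lowest summed member CPM, with means of 9206 ± 320 and 9698 ± 330 (SD, n = 3), and the other 9 exposures ran from 10473 ± 551 to 20790 ± 1369. The rule favours genes that are low in these controls, so this order describes the choice. Among the 123 members with a mean of at least 10 CPM over the 11 controls, the log2 range between the lowest and highest control had a median of 1.65, and among all 8458 such genes 1.34. The log2 difference of the FC10diol and PFTDoDA controls from the other 9 had medians of -0.43 and -0.44 in the members, and of -0.03 and 0.03 in all genes.

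**Figure D5:**
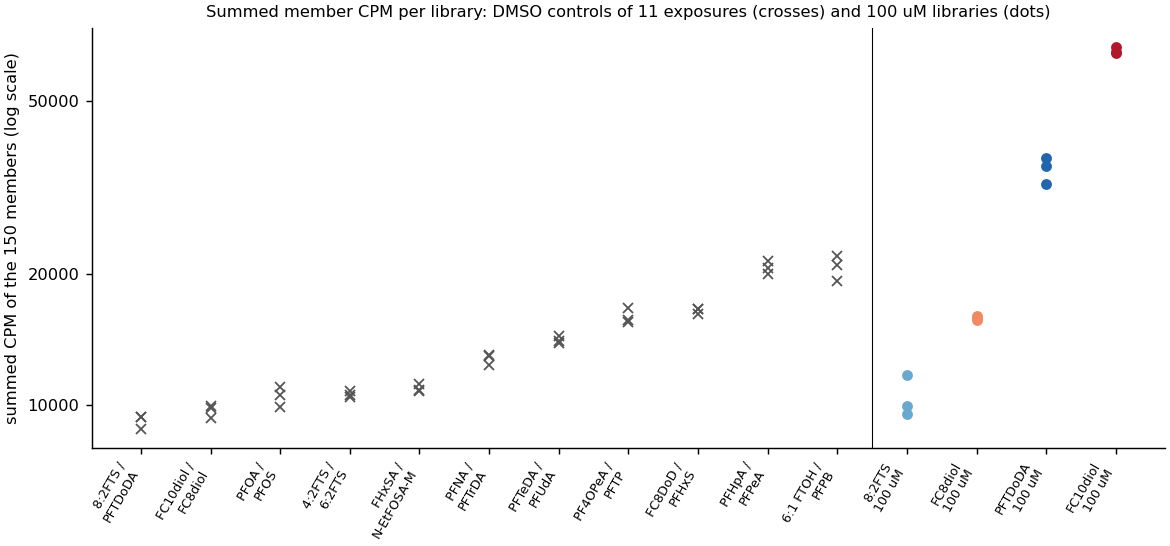
Summed CPM of the 150 members per library on a log axis: crosses are the 3 DMSO libraries of each of 11 exposures, named by their compounds, and dots the 100 µM libraries of 8:2FTS, FC8diol, PFTDoDA and FC10diol. The PFTDoDA and FC10diol libraries lie above every control library, whose highest exposure mean is 20790, while FC8diol and 8:2FTS lie within the range of the controls.

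Set against all 33 control libraries, the rise at 100 µM stayed visible for many members and not for others. All 3 libraries lay above every control library in 103 members with FC10diol, beside 8.28% of all genes, and in 72 with PFTDoDA, beside 2.37%, and 60 members did so with both; the selection used these contrasts. Rsub_04745 and Rsub_10216 were the most abundant members over the 33 control libraries, with means of 2699 and 1388 CPM. The control means of Rsub_04745 ran from 569 CPM in the FC10diol exposure to 7687 CPM in another, above its 5669 ± 300 CPM at 100 µM of FC10diol. Those of Rsub_10216 ran from 685 to 2424 CPM, against 3725 ± 209 CPM with FC10diol and 1952 ± 175 CPM with PFTDoDA. For Rsub_09256 the highest control mean was 124 CPM, below the 373 ± 61 and 771 ± 139 CPM at 100 µM of both compounds. For Rsub_05059 it was 106 CPM, below 151 and 594 CPM with FC10diol and PFTDoDA. For Rsub_02532 it was 35.2 CPM, below 39.7 and 125 CPM. For Rsub_11376 it was 279 CPM, above the 184 CPM with FC10diol and below the 373 CPM with PFTDoDA.

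The identifiers of 14 members differ by 1 from that of another member, in 7 pairs, or 9.33% of the members, and 21.1% of the 1227 passing genes have such a neighbour among themselves. In the pair Rsub_04859 and Rsub_04860, R at 100 µM was 4.24 and 4.42 with FC10diol and 1.71 and 2.16 with PFTDoDA. In the pair Rsub_12139 and Rsub_12140 it was 6.11 and 3.92 with FC10diol and 2.77 and 2.80 with PFTDoDA. Whether neighbouring numbers are neighbouring genes is not given in the sources used here.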

How the data were processed

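The authors deposited one table of whole-number gene counts per compound, 22 in all, with 13429 identifiers each. featureCounts 2.0.6, STAR 2.7.10a, fastp 0.23.2 and SAMtools 1.15.1 are named, without order or role, in the submitters' processing notes. The kit tags the 3' end and adds molecular identifiers, per the labels' protocols. Not given in the sources used here are the genome build, the annotation and any collapsing by molecular identifier. Intervals therefore cover counting error only, and reads of overlapping genes or close paralogs may have been split. The control columns held by both tables of an exposure were identical in 33 of 33 cases and were read once. No column was left out.

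The members and all lists and tests were chosen with earlier results of these data known. R used CPM on the total counts, a pseudocount of 1 and the median of genes with at least 5 control CPM as centre. Tests used edgeR 4.0.16 in R 4.3.3 on the counts as deposited (filterByExpr by group, TMM, robust glmQLFit, glmQLFTest) with all libraries of the compounds compared and their controls, and Benjamini-Hochberg adjustment over all genes of a fit, called at 0.05. Contrasts use no library that chose the members. In the fits that hold them, those libraries still share the estimate of spread and enter the filter on low counts. The procedure was tested on simulated data. Replicates of the 4 compounds and their controls differed by more than counting noise: over 90 pairs, chi-square divided by its degrees of freedom was 2.01 to 5.54.

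Named members are the first 4 in rule order, the last 2 inside and first 2 outside, the 3 largest called changes of each independent contrast, the 3 called higher and the 3 called lower with most of the 18 other compounds (among ties, those whose called log2 changes were larger on average), and the 2 with the highest control mean; others are named where a count is 5 or fewer or where said. Chosen alternatives were RLE factors, no scaling factors, no filter, DESeq2 1.42.0, a replicate block, leaving out each replicate number and 1 µM as the reference. Comparing changes from 0.1 µM between compounds was added after the data were seen. The planned gene lists could not be matched and were not used here.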

Additional observations from a re-analysis of the deposited data

Results flagged for a closer look

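The change between compounds differed in 4 tests of the difference itself, each an interaction in edgeR. From 0.1 to 10 µM the change was larger with FC10diol than with PFTDoDA in 9 members and smaller in 3, and larger with FC10diol than with FC8diol in 7 members, among them Rsub_11287, Rsub_07803 and Rsub_11263. From 0.1 to 32 µM it was larger with PFTDoDA than with 8:2FTS in 26 members, among them Rsub_10908, which had 198, 211 and 256 CPM at 0.1 µM and 738, 784 and 773 CPM at 32 µM of PFTDoDA against 188, 206 and 209 CPM and 171, 218 and 290 CPM with 8:2FTS (1.60 ± 0.21, edgeR adjusted p = 5.07e-07). Without replicate number 2 these counts were 1, 0, 1 and 10. Dixon's test for outlying values was not run because groups held 3 or fewer libraries.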

How the results depend on the processing

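Leaving out 1 replicate number at a time moved the counts most. Members called higher numbered 20 to 33 with FC10diol at 10 µM, 45 to 66 with PFTDoDA at 32 µM, 19 to 32 with FC8diol and 1 to 6 with 8:2FTS, and 0 to 1 fell with FC8diol. They numbered 14 to 29 for FC10diol against FC8diol and 33 to 52 for PFTDoDA against 8:2FTS, and calls with the 18 other compounds numbered 34 to 89 higher and 7 to 15 lower. For the change of FC10diol against PFTDoDA the counts were 1 to 7 and 0 to 2. Fewer libraries enter each of these fits. With 1 µM as the reference 2 members rose with 8:2FTS, and without a filter on low counts 27 calls with the 18 compounds were lower. Comparing changes in place of levels left 7 and 26 members for the 2 pairs. The causes of these last moves were not tested. Of 144 alternatives of counts 24 moved by more than 1.5 times.

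The same-numbered libraries had correlations of their deviations from -0.005 to 0.158, with 3 of 18 over 0.1, so the numbers were not taken as pairs, although 13 of 18 libraries correlated best with their own number. With the replicate block, members higher numbered 50, 79, 37, 7, 43 and 71 in the 6 contrasts in the order above, 1 fell with FC8diol, and the 18 compounds gave 161 calls higher and 27 lower.

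Of 439 alternatives of the named genes' fold changes, 410 kept their direction and call, 16 lost the call, 9 gained one and 4 turned or fell to 0, none of them called. Without 1 replicate number, the log2 change of Rsub_09256 ran from -1.04 to 0.37 with FC10diol and from -1.18 to 0.20 with FC8diol, that of Rsub_09976 from 0.0 to 2.52 with FC10diol, and that of Rsub_12189 from -0.24 to 0.063 with FC8diol. Recomputing the rule kept 106 to 117 of the 150 members without 1 replicate number, 121 with a pseudocount of 5, 125 without centring and 149 with TMM-scaled totals. Of the 39 members under 10 CPM at 0.1 µM of each compound, 6 were called with FC10diol, 17 with PFTDoDA and 3 with FC8diol; the part of depth in this was not tested.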
